A study of Drosophila melanogaster with 6 samples.

Results

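The genes described here are 10 components and targets of the Notch pathway, measured in astrocytes sorted from the brain of Drosophila melanogaster before and after neuronal remodelling. They were taken by symbol from the deposited table of 16666 genes, and all 10 symbols were present: N, Dl, mam, Su(H), H, numb, E(spl)malpha-BFM, E(spl)mbeta-HLH, E(spl)mgamma-HLH and E(spl)m7-HLH. The astrocytes came from larvae of the third instar (L3, 2 libraries) and from adults (4 libraries) of the same strain, reared at 25 °C. In both stages the Alrm-Gal4 driver, named for the astrocyte gene alrm, expressed the red nuclear reporter UAS-RedStinger and the membrane-bound reporter UAS-mCD8::GFP. Each library was made from 1000 cells sorted for red fluorescence. Larval brains were digested for 15 min and adult brains for 30 min at 29 °C, so enzyme time and stage cannot be told apart. The sources used here do not give the age and sex of the adults or the number of brains per pool.

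Notch is a transmembrane receptor that is cut when it binds a ligand such as Delta on a neighbouring cell. Its freed intracellular part enters the nucleus and joins the DNA-binding protein Suppressor of Hairless and the coactivator Mastermind, which turns on target genes, while Hairless holds the same genes off in the absence of signal. The best-known direct targets in the fly lie in the Enhancer of split complex, which encodes basic helix-loop-helix (bHLH) repressors and small Bearded family proteins that act on the ligand side. In the fly nervous system the pathway is known for separating sibling cell fates, for keeping neuroblasts in a stem cell state and for roles in glia.

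The libraries held 1923097 to 2641671 counts in L3 and 745129 to 1287871 in adult. Levels are in CPM, which divides each count by the total of its library and rescales it, and since these are 3′ end libraries, levels were tested between stages and not between genes. The gene with the most counts in a list is named only to describe the list. Log2 fold changes are adult minus L3, from edgeR's quasi-likelihood test with Benjamini-Hochberg adjustment over 9082 genes, of which 22.7% passed 0.05 in either direction, 9.65% higher and 13.1% lower in adult. The median log2 fold change over these genes was -0.14. Of 9 astrocyte markers, 7 rose and 0 fell, with 7 under an unadjusted 0.05 and 7 called by DESeq2. The driver gene alrm was at 861 and 1346 CPM in L3 and at 994 to 1628 CPM in the adult libraries. No label says that libraries came from separate animals, so p-values measure only the spread between these libraries. A lower level in adult can mean fewer cells with the transcript or less of it per cell, and bulk libraries cannot tell these apart.

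Several of the 10 rows hold counts that do not belong to 1 gene alone. N had the counts of its neighbour CG18508 to within 0.198% of their sum, mam had exactly those of Prosap, and E(spl)mbeta-HLH had those of the noncoding gene CR45038 to within 0.318%. In each of these pairs the 3′ ends of the genes face each other in the Ensembl annotation. H had exactly the counts of Pi3K92E, a phosphatidylinositol kinase gene whose 3′ end faces that of H, although their rows lie far apart in the table. E(spl)malpha-BFM, E(spl)mgamma-HLH, E(spl)m7-HLH, Su(H) and numb had no gene within 5% of their counts among their neighbours. Su(H) came closest, with CR43856 at 5.26%. Values given below for N, mam, H and E(spl)mbeta-HLH could therefore belong to either gene of the pair.

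The row named Dl could not be read as Delta. Its counts were exactly those of CG5873, CG14331 and Eh, and it stood between CG44090 and CG14331, which are not neighbours of Delta in the RefSeq order of genes. These 2 flanking genes lie on arm 3R, as Delta does, but the start of Delta does not fall between theirs. The start position of dorsal (dl), whose symbol differs from Dl only in case, does, although dorsal lies on arm 2L. The row named H likewise stood between genes of arm 3R. The start position of hairy (h), which lies on arm 3L, falls between theirs, and that of H does not. Neither dl nor h had a row of its own, and 0 symbols in the table differed from another only in case. The ligand gene was thus not measured here, and the values of the Dl row are given only for completeness.

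The receptor gene N was at 30.7 and 46.8 CPM in L3 and at 35.9, 98.0, 104 and 95.5 CPM in adult libraries 1 to 4. Adult libraries 2, 3 and 4 lay above both L3 libraries, and library 1 lay between the L3 values. The means were 38.7 ± 11.4 (SD, n = 2) and 83.4 ± 31.9 CPM (SD, n = 4), and the difference did not pass the edgeR test (log2 fold change 1.08, SE 0.48, adjusted p = 0.114). It passed only when adult library 1 was left out (log2 fold change 1.37, adjusted p = 0.0456).

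numb, whose protein blocks Notch in the daughter cell that inherits it, had 4 counts in L3 library 1 and 0 elsewhere. Over the 4 adult libraries a count of 0 allows up to 0.724 CPM, from a floor of 3 counts. numb did not pass the filter on low counts, and a difference between stages was not detectable at this depth. The Dl row, which is not read as Delta, held 7 counts in L3 library 1, 1 count in adult library 1 and 0 in the other libraries.

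The nuclear partners of Notch moved in different directions. mam, the Mastermind coactivator, was at 23.8 and 64.5 CPM in L3 and at 236, 150, 84.4 and 253 CPM in adult. Every adult library lay above both L3 libraries, as it did for 14.8% of all genes tested. The mean rose from 44.2 ± 28.7 to 181 ± 78.6 CPM (edgeR log2 fold change 2.12, SE 0.48, adjusted p = 0.00268). This is also the value of Prosap, a postsynaptic scaffold gene with the same counts. Without L3 library 1, the lower of the L3 values, the log2 fold change was 1.67 and the gene no longer passed (adjusted p = 0.0913).

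Su(H), which encodes the DNA-binding protein of the pathway, was at 11.4 and 12.5 CPM in L3, from 30 and 24 counts. The 4 adult libraries held 1, 0, 0 and 1 counts, or at most 0.835 CPM. The L3 libraries agree within counting error, and every adult library lay below them, as for 22.9% of all genes tested. The pooled-count ratio of L3 to adult was 24.5, with a 95% counting interval of 6.46 to 208. The gene fell in the edgeR test (log2 fold change -4.43, SE 1.45, adjusted p = 0.0331). That call was lost when any 1 of the 6 libraries was left out (adjusted p from 0.0558 to 0.194) and with DESeq2 (adjusted p = 0.114).

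H, which encodes the corepressor Hairless and shares its counts with Pi3K92E, was at 34.1 and 66.6 CPM in L3. The adult libraries were at 0.835, 63.1, 32.9 and 14.0 CPM, a spread from almost no signal to the level of the higher L3 library. The stages overlapped and the difference did not pass (log2 fold change -1.05, SE 0.65, edgeR adjusted p = 0.270).

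**Figure D1:**
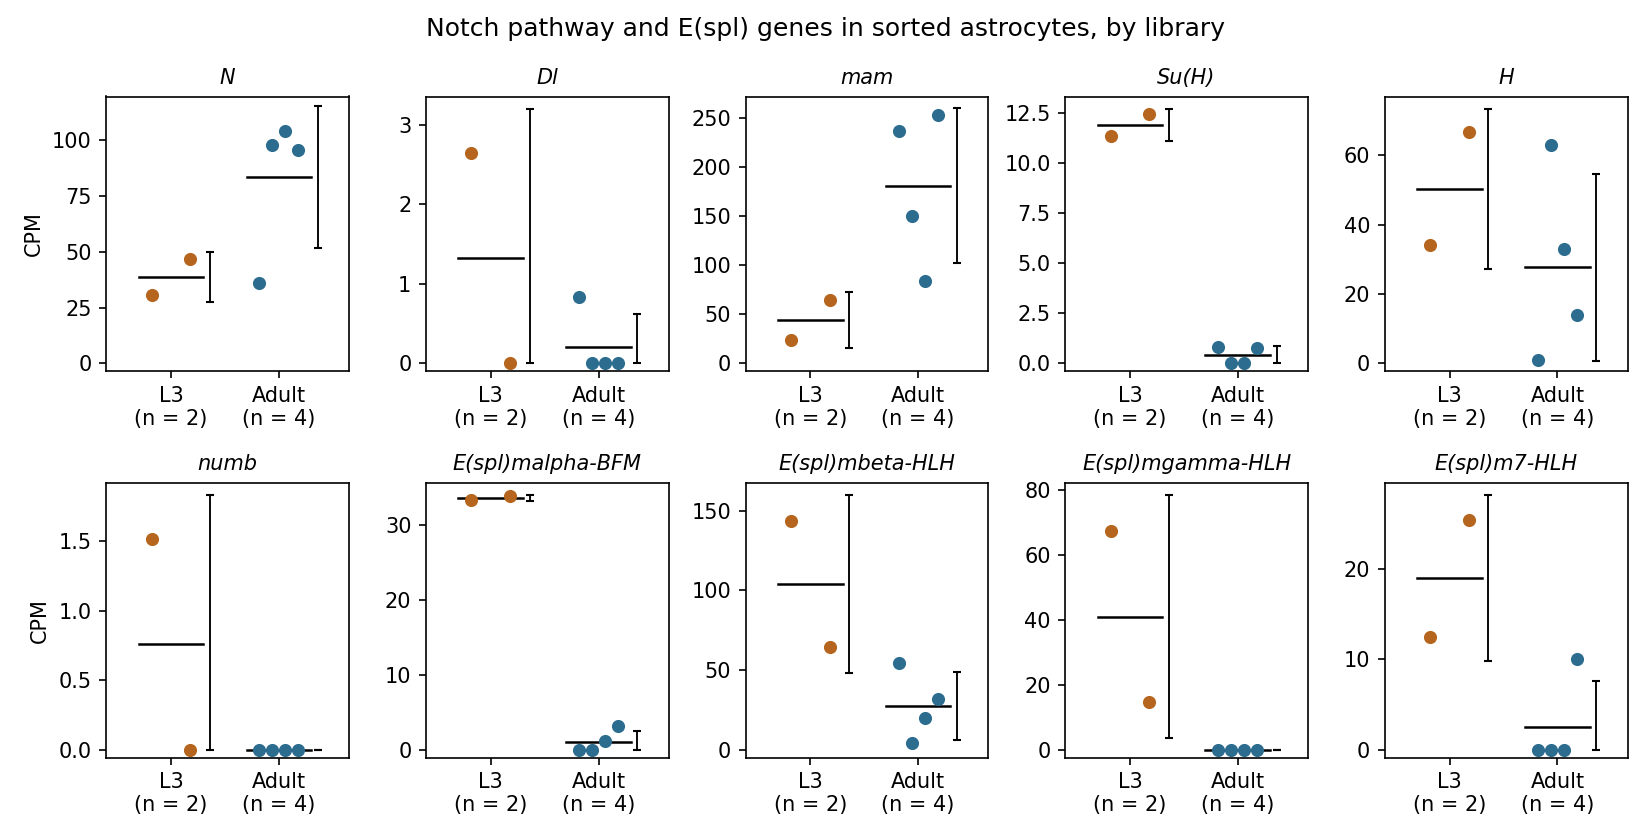
CPM of the 10 genes in each library, with L3 (n = 2) in brown and adult (n = 4) in blue; horizontal lines are means and bars are ± 1 SD, stopped at 0. The adult points of mam lie above both L3 points, and those of Su(H) and the 4 E(spl) genes lie below them.

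All 4 E(spl) genes had their adult libraries below both L3 libraries, as had 22.9% of all genes tested, and 3 of them passed the test. Of the 8 genes tested among the 10, 4 were lower and 1 was higher in adult, beside 13.1% and 9.65% of all genes tested. Those 4 were Su(H), E(spl)malpha-BFM, E(spl)mbeta-HLH and E(spl)mgamma-HLH. Apart from E(spl)mbeta-HLH they passed the filter on low counts, about 8.05 CPM in 2 libraries, only through their L3 libraries, so that count is a description and not support for a change of the group. The median log2 fold change of the 8 was -2.22.

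E(spl)malpha-BFM, a Bearded family gene, was nearly the same in both L3 libraries, at 33.3 and 33.8 CPM from 88 and 65 counts. Adult libraries 1 and 2 held 0 counts, library 3 held 1 and library 4 held 4. At the L3 level, about 24.8 counts would fall in the shallowest adult library. The mean fell from 33.6 ± 0.345 to 1.05 ± 1.46 CPM (edgeR log2 fold change -4.74, SE 1.05, adjusted p = 0.00226), and the pooled-count ratio was 27.8 with a counting interval of 11.6 to 86.8. The call held when any 1 library was left out (adjusted p up to 0.0274), as no other call in the E(spl) complex did, and it held with DESeq2 (adjusted p = 0.00506) and limma-voom (adjusted p = 0.00376).

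E(spl)mbeta-HLH encodes a bHLH repressor and was the only gene of the 10 from the complex with counts in every library. It was at 143 and 64.5 CPM in L3 and at 54.3, 4.03, 19.7 and 31.8 CPM in adult. The highest adult library came close to the lower L3 library without reaching it. The mean fell from 104 ± 55.9 to 27.5 ± 21.2 CPM (edgeR log2 fold change -1.89, SE 0.54, adjusted p = 0.0144). Without L3 library 1 the log2 fold change was -0.95 and the gene no longer passed (adjusted p = 0.460), and the adjusted p was 0.0790 with DESeq2 and 0.0608 with limma-voom. CR45038 has nearly the same counts.

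E(spl)mgamma-HLH, a bHLH repressor also used as a marker of neuroblasts, was at 67.4 and 14.6 CPM in L3, from 178 and 28 counts, and at 0 in all 4 adult libraries. Even at the lower L3 level, 10.8 counts would fall in the shallowest adult library. Its mean of 41.0 CPM in L3 is at least 56.6-fold higher than the adult floor of 3 counts over the stage (edgeR adjusted p = 0.00286), and L3 library 2 alone is at least 20.1-fold higher. The L3 libraries differed 4.63-fold (counting interval 3.10 to 7.16), and on leaving out L3 library 1 the gene no longer passed (adjusted p = 0.101).

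E(spl)m7-HLH, another bHLH repressor gene, was at 12.5 and 25.5 CPM in L3. In adult it had 0 counts in libraries 1, 2 and 3 and 13 counts, or 10.1 CPM, in library 4. The stages did not overlap, but the difference did not pass the test (log2 fold change -2.54, SE 1.06, edgeR adjusted p = 0.0844). It passed without adult library 4 (adjusted p = 0.0292) and with limma-voom (adjusted p = 0.0265). Its L3 libraries stood the other way round from those of E(spl)mgamma-HLH, with library 1 at 0.490 times library 2 (counting interval 0.305 to 0.778).

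The complex holds 12 genes of the bHLH, Bearded and Kazal classes in the table, of which 4 are described above. All 12 had a lower mean in adult than in L3. Some of these means rest on few counts, such as 5 and 6 in L3 for E(spl)m6-BFM. The median log2 fold change was -0.14 over all genes tested and -0.37 in the edgeR run without a filter on low counts. The shares of all genes with a lower adult mean or with no adult count were not counted, so such numbers only describe the complex. In 9 every adult library lay below both L3 libraries, among them 6 of the 8 that were tested, beside 22.9% of all genes tested, and 3 that did not pass the filter on low counts. In 5 of the 12, E(spl)mdelta-HLH, E(spl)mgamma-HLH, Kaz-m1, E(spl)m2-BFM and E(spl)m5-HLH, all 4 adult libraries were at 0. Of these, E(spl)m5-HLH was also at 0 in L3 library 2, so it is not among the 9. Of 8 complex genes tested, 5 fell and 0 rose, beside 13.1% and 9.65% of all genes tested, with 6 under an unadjusted 0.05 and 3 called by DESeq2. Of those 5, 4 passed the filter on low counts only through L3, so the count describes the complex and is no support for a change of the group. Beyond those already given, Kaz-m1, a secreted protease inhibitor gene, shares counts with CR45039 to within 5%. Kaz-m1 was at 26.1 and 8.84 CPM in L3 and fell to no adult count (edgeR adjusted p = 0.00874). Its L3 mean is at least 24.1-fold higher than the adult floor, and L3 library 2 alone at least 12.2-fold. Its counts equal those of CR45040, and leaving out L3 library 1 ended the call (adjusted p = 0.200). E(spl)m8-HLH fell from 13.0 to 0.582 CPM (edgeR log2 fold change -4.11, SE 1.37, adjusted p = 0.0353), a call lost with DESeq2 (adjusted p = 0.162) and without any 1 library except adult library 4. Its only adult counts were 3 in library 4.

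Besides E(spl)m5-HLH, the exceptions within the complex were E(spl)m3-HLH and E(spl)m4-BFM, which lie next to each other with their 3′ ends facing. Their counts were within 2.96% of their sum. E(spl)m3-HLH was at 51.9 and 34.3 CPM in L3 and at 28.4, 1.34, 36.2 and 19.4 CPM in adult, so the stages overlapped (log2 fold change -1.03, SE 0.60, edgeR adjusted p = 0.240). E(spl)mbeta-HLH, E(spl)m3-HLH and E(spl)m4-BFM were the 3 genes of the complex with counts in every adult library. In all 3 adult library 2, the shallowest, was the lowest. Adult library 4 was above 0 for 7 of the 12 genes, and 5 were at 0. Libraries 1 and 2 were at 0 for 9 each, and library 3 for 8.

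**Figure D2:**
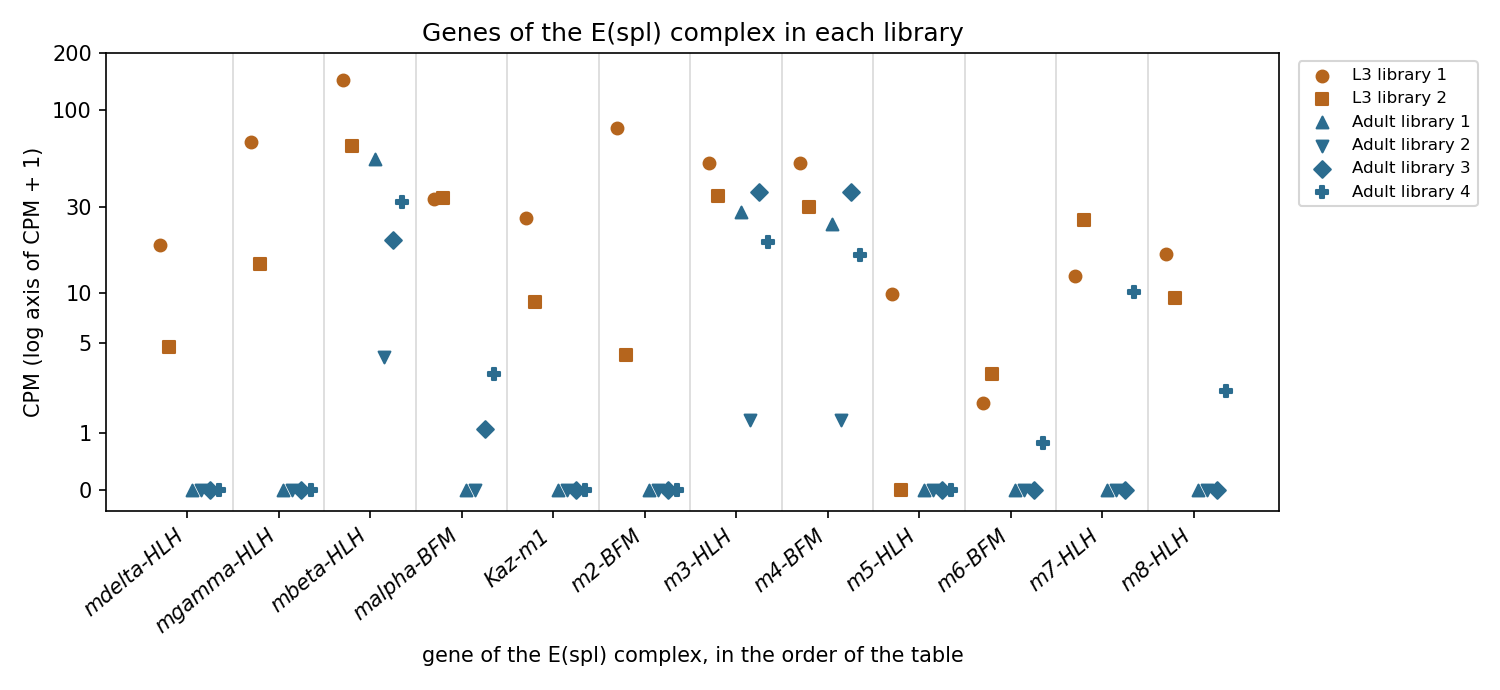
CPM (log axis of CPM + 1) of the 12 genes of the E(spl) complex, in table order, in the 2 L3 libraries (brown) and the 4 adult libraries (blue), each with its own symbol. In 5 genes all adult points lie at 0, and mbeta-HLH, m3-HLH and m4-BFM have points above 0 in every adult library.

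The L3 libraries differed in the complex by more than counting error. Summed over the 12 genes, with shared counts included, the complex stood at 513 CPM in L3 library 1 and 233 in library 2, against 107, 6.71, 93.2 and 83.9 CPM in adult. In 9 of 12 genes L3 library 1 was the higher. The share of all genes higher in that library was not counted, so this number only describes the complex. E(spl)m3-HLH and E(spl)m4-BFM, which share counts, are both among the 9. The excess was 19.1-fold for E(spl)m2-BFM (counting interval 9.52 to 44.8), which has the counts of CR43643 and shares those of CR43644 to within 5%. The excess of E(spl)mdelta-HLH was 3.96-fold (1.93 to 9.18), while E(spl)malpha-BFM had a ratio of 0.986 (0.707 to 1.38).

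Some markers of progenitor cells had counts in L3 alone, while the neuroblast list as a whole overlapped between stages. The neuroblast transcription factor genes wor, ase and grh had counts in L3 library 1 and in no other library, from 5 to 18 counts each, and CG44869 has the counts of wor. mira, an adaptor for asymmetric division, was at 22.7 and 7.80 CPM in L3 and at 0 in adult, and its L3 libraries differed 2.91-fold (1.63 to 5.52). Of 7 neuroblast markers, 4 were at 0 in every adult library and 3 were at 0 in L3 library 2. The summed level of all 7 was 226 and 335 CPM in the L3 libraries and 157 to 254 in the adult ones, most of it from insc, which has the counts of sktl, and pnt, which has nearly those of CG4434. Of the 3 tested, 0 passed, with 0 under an unadjusted 0.05. DESeq2, fitted without the same filter on low counts, called 1 of the 7, mira. pnt, with the most counts, was at means of 194 and 162 CPM (edgeR adjusted p = 0.720).

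Of 6 dividing cell markers, 5 fell and 1 rose, beside 13.1% and 9.65% of all genes tested. Those that fell passed the filter on low counts only through L3, so that count is a description. The mitotic genes CycB, stg, polo and aurB were at 0 in every adult library and had counts in both L3 libraries, and CycA had 5 counts in adult library 1 alone. CycB was at 48.1 and 34.3 CPM in L3 (edgeR adjusted p = 0.000941) and stg, which has the counts of SP1029, at 26.1 and 26.5 CPM. Cdk1, with the most counts, rose from 105 to 262 CPM (adjusted p = 0.0178). The list's summed level was 256 and 204 CPM in the L3 libraries and 193 to 351 in the adult ones, nearly all of the adult sum being Cdk1. Whether progenitor or dividing cells account for any of the E(spl) counts in L3 was not tested. Between the L3 libraries both marker lists were mixed. mira, polo (2.82-fold, 1.61 to 5.24) and CycB (1.40-fold, 1.03 to 1.92) were higher in library 1, as E(spl)mgamma-HLH was. pnt (0.529, 0.460 to 0.608) and insc (0.693, 0.535 to 0.898) were lower there. For dpn, CycA, Cdk1, stg and aurB, as for E(spl)malpha-BFM, the counting interval of the ratio included 1.

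**Figure D3:**
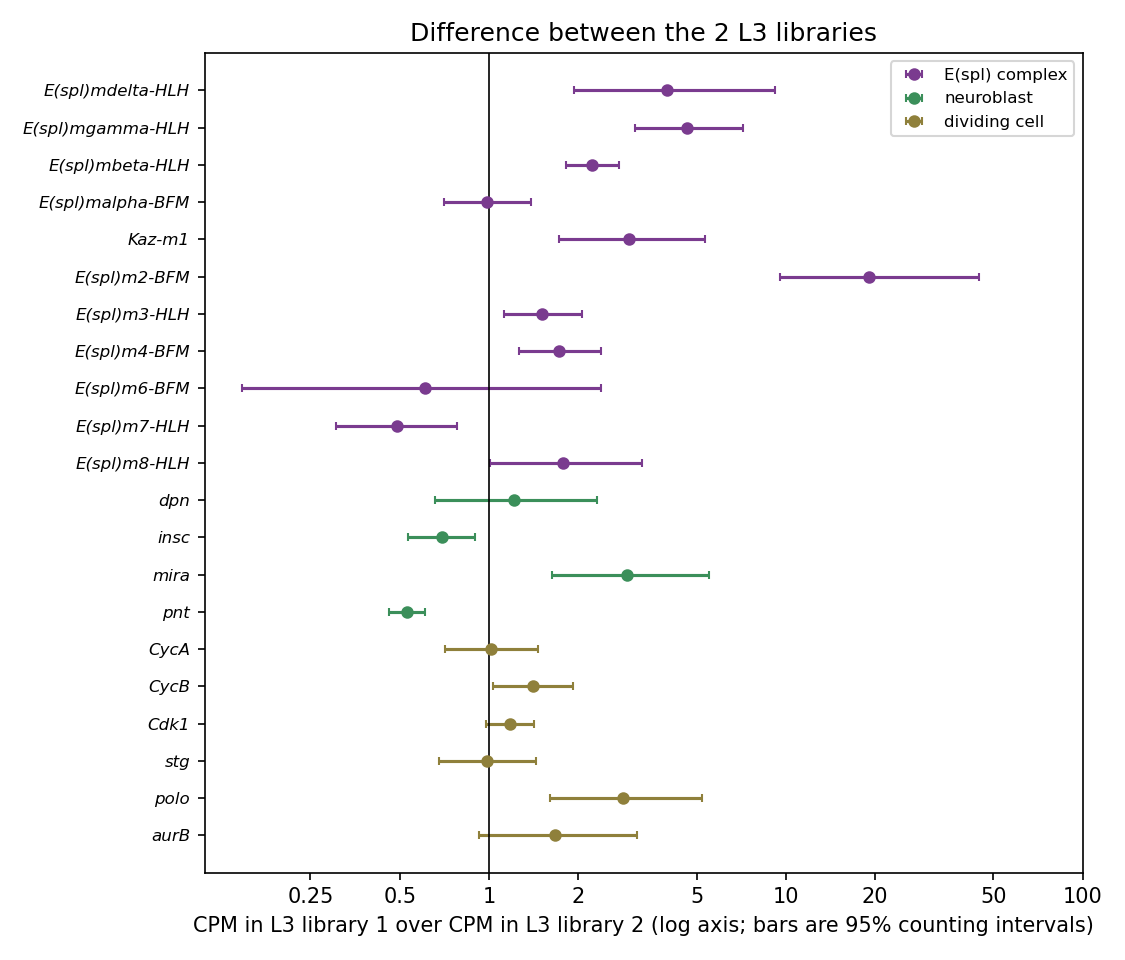
Ratio of CPM in L3 library 1 to CPM in L3 library 2 (log axis) for genes of the E(spl) complex, neuroblast markers and dividing cell markers with counts in both libraries; bars are 95% counting intervals. E(spl)m2-BFM and E(spl)mgamma-HLH stand at 19.1 and 4.63, E(spl)malpha-BFM and stg at 0.986 and 0.985, and pnt and E(spl)m7-HLH at 0.529 and 0.490.

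Markers of other cells moved too. Of 8 neuron markers tested out of 9, 2 rose, beside 9.65% of all genes tested. They were nSyb, from 7.71 to 53.5 CPM (edgeR adjusted p = 0.00377), and Gad1, which has the counts of Faa, from 1.58 to 21.0 CPM (adjusted p = 0.0277). The neuron gene elav, with the most counts, was at 65.3 and 100.2 CPM (adjusted p = 0.284). Summed, the list stood at 84.0 and 154 CPM in the L3 libraries and at 202 to 405 in the adult ones. The hemocyte gene Hml rose from 32.3 to 1278 CPM (adjusted p = 8.35e-08), while NimC1 and He were at most 6.21 CPM in any library, srp, which has the counts of CR42839, had counts in adult library 3 alone, and the 4 genes summed to 43.2 and 27.6 CPM in the L3 libraries and 847 to 1550 in the adult ones. The part of these cells in the rise of mam and Prosap was not tested.

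Outside the 10 genes, 41 further pathway genes were listed by role, of which 40 had a row. Of 25 tested, 1 rose and 4 fell, beside 9.65% and 13.1% of all genes tested. The median log2 fold change of the 25 was -0.10. Among the falls, Kaz-m1 and E(spl)m8-HLH passed the filter on low counts only through L3. Among 15 not tested, 2 had no count in any library and 12 had a lower mean in adult. The share with a lower mean was not counted over all genes, so this is a description. Of the 40, 19 shared the counts of a neighbour, as did 4 of the 5 that passed. Each of those values could belong to any gene that shares the counts.

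Genes on the ligand side had few counts or did not pass the test. The ubiquitin ligase gene mib1, which has the counts of mRpS31, was at means of 25.7 and 31.0 CPM (edgeR adjusted p = 0.798), and it was the only 1 of 4 that passed the filter on low counts. The second Notch ligand gene, Ser, had 14 and 6 counts in L3 and none in adult. neur, a ubiquitin ligase gene for Delta, was at 11.7 and 4.16 CPM in L3 and at most 2.68 in adult.

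Genes that cut the receptor held both falls among the further pathway genes that lie outside the complex. Tace, a metalloprotease gene, has the counts of Nph, and CG7903 and CG15525 share them to within 5%. The level of Tace was 132 and 180 CPM in L3 and 25.0, 38.9, 43.8 and 31.1 CPM in adult (log2 fold change -2.22, SE 0.41, edgeR adjusted p = 0.000444). The groups were far apart, and the call held when any 1 library was left out (adjusted p up to 0.00616). Psn, which encodes the catalytic subunit of gamma-secretase and has the counts of mRpL15, fell from 57.1 ± 22.9 to 17.7 ± 10.8 CPM (edgeR log2 fold change -1.62, SE 0.57, adjusted p = 0.0429). Its call was lost with DESeq2 (adjusted p = 0.162), with limma-voom (adjusted p = 0.0755) and on leaving out either L3 library or adult library 2, 3 or 4 (adjusted p from 0.0510 to 0.229). The other gamma-secretase genes nct, aph-1 and pen-2 and the Notch protease gene kuz did not pass, with log2 fold changes of -0.68, -0.10, 0.45 and -0.08. The sign of each turned on leaving out 1 of the L3 libraries. kuz, at 23.5 and 121 CPM in L3, stood at -0.76 without L3 library 1 and at 1.27 without library 2, and pen-2 at -0.05 and 1.24. kuz shares counts with ics, nct with HDAC11, and pen-2 with Ote and sbb, each to within 5%. Among the 20 tested pathway genes outside the 10 that did not pass, the sign turned for 8 when 1 library was left out.

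Among receptor glycosylation genes, fng, the glycosyltransferase gene that tunes ligand choice, has the counts of CR43929. fng was at 14.4 and 31.2 CPM in the L3 libraries and, without overlap, at 50.9 to 73.0 in the adult ones. It narrowly missed the threshold (log2 fold change 1.42, SE 0.52, edgeR adjusted p = 0.0522). O-fut1, with the most counts, was at means of 260.5 and 171 CPM (adjusted p = 0.163). Of the 2 tested in this group 0 passed, with 1 under an unadjusted 0.05 and 0 called by DESeq2.

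Of 4 tested receptor trafficking genes, the kinase gene Nak rose. It was at 43.5 and 26.5 CPM in L3 and at 150, 166, 145 and 138 CPM in adult (log2 fold change 2.0, SE 0.43, edgeR adjusted p = 0.00170). Its counts equal those of CG10623, and Nedd8 and CG10621 share them to within 5%. The 5 nuclear cofactor genes tested had 0 calls, with 0 under an unadjusted 0.05 and 0 called by DESeq2. Smr, a corepressor gene and the one with the most counts, was at 715 ± 305 and 733 ± 61.5 CPM (log2 fold change 0.05, SE 0.31). gro, which encodes the corepressor that E(spl) proteins recruit and adjoins the complex, was at 19.7 and 47.8 CPM in L3 and at 28.4, 0, 0 and 35.7 in adult (adjusted p = 0.481).

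Of the 2 bHLH genes of the same wider family that were tested outside the complex 0 passed, with 1 under an unadjusted 0.05 and 0 called by DESeq2. Hey, a Notch target gene that shares counts with Dic3, was at 2.65 and 9.88 CPM in L3 and at 30.1, 9.39, 19.7 and 24.8 in adult (log2 fold change 1.90, SE 0.83, edgeR adjusted p = 0.106). dpn, the neuroblast gene deadpan, which has the counts of CG34217, was at 11.4 and 9.36 CPM in L3 and had counts only in library 4 of the adults, at 6.21 CPM (adjusted p = 0.150). The Bearded family genes Brd, Tom and Ocho lie outside the complex and were at 0 in every adult library, with 2.27 to 18.5 CPM in L3 library 1 and 1.04 to 3.64 in library 2.

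**Figure D4:**
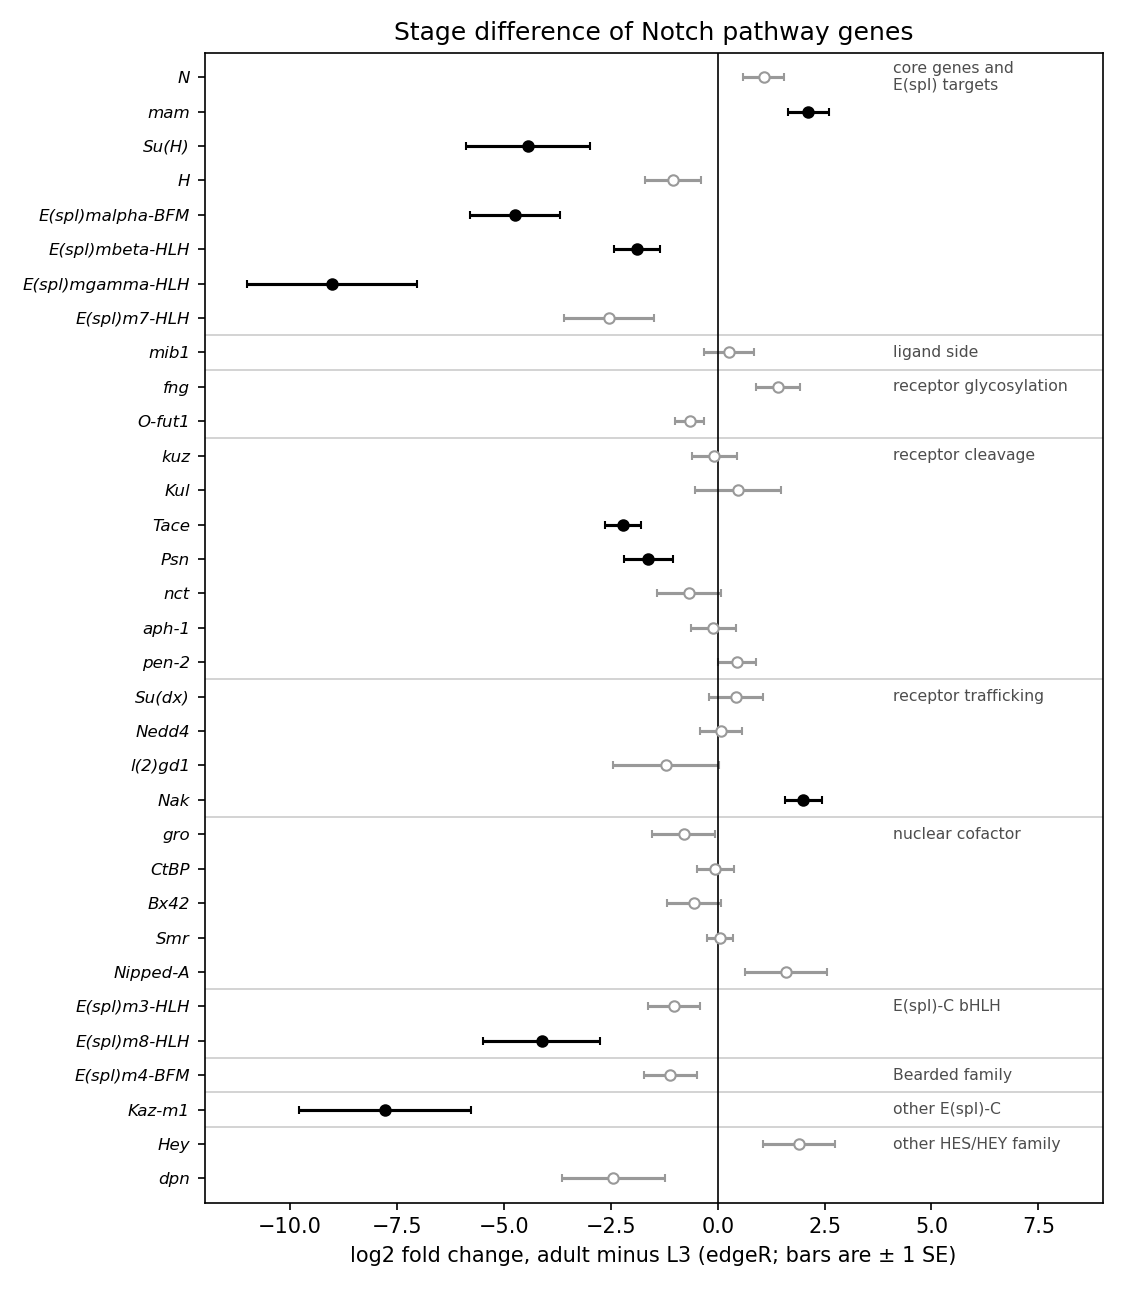
Log2 fold change of adult minus L3 for the tested genes, grouped by role, with bars of ± 1 SE from edgeR; filled black points have an adjusted p under 0.05. For E(spl)mgamma-HLH and Kaz-m1, which had no adult count, the fitted value depends on the prior count and is no bound. Of the 25 genes outside the E(spl) complex, 12 lie more than 1 from 0, from Su(H) at -4.43 to mam at 2.12.

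Genes with the most similar pattern over the 6 libraries were sought for the 3 tested genes with the smallest adjusted p. Likeness was measured by the Euclidean distance of centred log2(CPM + 1). Only genes with a mean of at least 20 CPM over the 6 libraries were searched. Genes with lower means, such as Kaz-m1, could thus not be returned. The E(spl) genes among the 3 were themselves below that mean. Prosap, which has the counts of mam, was left out. Among the genes searched, those nearest to E(spl)malpha-BFM were CR43148 at 1.26 and the prohibitin gene Phb2 at 1.39. Nearest to mam, apart from Prosap, were CG14401 and sky, which had the same levels as each other, both at 0.413. Of the genes searched, CG5210 at 1.7 and the importin gene Pen at 2.05 were nearest to E(spl)mgamma-HLH, both with no adult count. Of these, CG5210 stood at 70.4 and 56.2 CPM in L3, without the difference between libraries seen in E(spl)mgamma-HLH.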

How the data were processed

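RNA was measured in 2 L3 and 4 adult pools of 1000 sorted cells, as 3′ end libraries made with a MARS-seq derivative, per the labels' protocols. The authors deposited whole-number counts per gene symbol without normalization. bcl2fastq, HISAT 0.1.5 and HOMER were used, per the submitters' processing notes. The sources used here do not give their settings, strand use, build or collapsing of molecular identifiers, so intervals and floors cover counting error only. All 6 columns were used and 0 others were present. Groups came from the sample titles.

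CPM is the count over the library's total. The test was edgeR 4.0.16 in R 4.3.3 (glmQLFit, TMM, filterByExpr, Benjamini-Hochberg at 0.05). It was run on simulated counts with a common dispersion and changes planted only in genes with a mean above 20 CPM. That check does not cover genes with fewer counts. SE is the log2 fold change over the square root of F. The floor is 3 counts over a stage, and ratios have exact 95% intervals. Rows at most 10 apart shared counts if the difference between them was under 5% of their sum and neither held fewer than 30 counts. Rows further apart were compared from 200.0 counts by chi-square (under 0.3). RefSeq and Ensembl tables served for names, order and orientation only. Library numbers were not used to pair the samples. The correlation of deviations was 0.0082 for numbers 1 and 2, which cannot exclude a shared batch. The genes and lists were chosen with earlier results of these data known. All 10 genes, called pathway genes (up to 2 per role and direction) and the gene with the most counts of each role or marker list are named by rule, and genes named beyond it were chosen after their values were seen. Alternatives were DESeq2 1.42.0, limma-voom (limma 3.58.1), edgeR's earlier method, scaling by RLE or upper quartile, no and a stricter filter (20 CPM in 2 libraries), 1 row per shared group, each library left out, a replicate block and a threshold of 0.01.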

Additional observations from a re-analysis of the deposited data

Results flagged for a closer look

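In the 4 adult libraries, 12 genes were examined for a library far from the others (the 10 genes and the called pathway genes with a nonzero range), and 4 values stood out, where chance flags about 1 in 20 groups. N was at 35.9 CPM in adult library 1, below the other adult libraries. E(spl)m7-HLH at 10.1 CPM and E(spl)m8-HLH at 2.33 CPM had adult counts in library 4 alone. The row named Dl had 0.835 CPM, 1 count, in adult library 1 alone. With 3 libraries at 0, any count in the fourth stands out.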

How the results depend on the processing

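Leaving out each library in turn gave 0 to 2 of the 10 genes higher and 1 to 4 lower, 1 to 2 and 1 to 5 of the other pathway genes, and 403 to 1020 and 509 to 1189 of all genes. Without L3 library 1 the 10 genes had 0 higher and 1 lower, and all genes 403 and 509. No direction of a tested gene among the 10 reversed in any alternative run. For the 10 genes the number lower was 2 with DESeq2, the earlier quasi-likelihood method, the stricter filter, libraries 1 and 2 of both stages unblocked, and a threshold of 0.01. Under these 5 settings 2 of the other pathway genes were lower. With the stricter filter 2 were higher, and with 1 row per shared-count group 0 higher and 2 lower, where 15 were tested because partner rows stood in for the rest (0 higher under an unadjusted 0.05).

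All-gene counts were 687 lower with DESeq2, 521 higher and 558 lower with the earlier method, 540 and 713 with 1 row per group, and 512 and 648 at 0.01. The replicate block on libraries 1 and 2 of both stages, which share only a number, gave edgeR counts of 0 higher and 0 lower for the 10 genes (1 and 4 under an unadjusted 0.05) and for the other pathway genes (1 and 3), and 306 and 186 of all genes. The cause of these shifts was not tested. The median log2 fold change of all genes was -0.13 to -0.16 across RLE, TMM and upper quartile scaling. With looser likeness, under 30% of summed counts, 7 of the 10 genes had a look-alike neighbour, against 3 under 5%. The test left out genes under about 8.05 CPM in all but 1 library. The DESeq2 fit and the edgeR fit without a filter included them, and DESeq2's default filter on mean count was left on for its adjustment.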
